A study of Populus davidiana with 6 samples.

Results

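In 41 genes of aspen leaves, the same transcript had the highest level in all 3 air-dried libraries and a different one had it in all 3 control libraries. They were found among 12337 genes that could meet this rule, and among 40537 gene identifiers in all. Such a gene had at least 2 transcripts with a genomic span of 200 bp or more, whose levels summed to at least 5 FPKM in each library. FPKM is a count of fragments divided by the length of the transcript and by all fragments of the library. The transcript with the highest FPKM of a gene in a library is called its main transcript. The air-dried main transcript and the control main transcript are those that led in each group.

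RNA came from leaves of Populus davidiana, an Asian aspen, of the cultivar Odae19. Its drought sensitivity is given as tolerant. The air-dried group held 3 libraries of plants about 6 weeks old, grown in vitro, that had been lifted from their medium, washed with sterile water and exposed to open air for about 10 min. The control group held 3 libraries of the same cultivar. Their labels carry the same note on plants about 6 weeks old, and do not say whether control plants were also lifted and washed. Lifting, washing and drying therefore cannot be told apart, and air-dried stands for all of them. The labels speak of triplicate leaf samples and name no separate plants or cultures, so the spread between libraries may be technical. The series title presents the comparison as a profile of drought stress.

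A plant gene can give rise to several transcripts, through different start sites, different splicing or different poly(A) sites. Retention of an intron is a common form of alternative splicing in plants, and drought and other abiotic stresses are known to change splicing. A change of main transcript can thus alter the protein or the untranslated ends while the gene as a whole keeps its level. The deposited levels are estimates for each transcript. Overlapping transcripts share most of their fragments, and the estimate divides these among them.

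The transcripts of the files are either annotated (45773) or assembled from reads (67146). The files give the genomic limits of each transcript and not its exons, and they pair no identifier with a name. The functions of the genes are therefore not given, leaf marker genes could not be looked up, and identifiers are printed for 4 genes alone. Other genes are given by their position, as the files count it, on a genome build that is not given in the sources used here. Every level below is an FPKM value, and a share is the percentage of a gene's FPKM held by 1 transcript, over its transcripts of 200 bp or more.

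Absolute sequencing depth is not known from FPKM. Genes with a single annotated transcript and few fragments showed whole-fragment steps, from which the depth of the libraries relative to control 1 was 0.985, 0.964 and 1.13 in air-dried 1, 2 and 3, and 1.03 and 1.09 in controls 2 and 3. Between 16070 and 16480 genes per library reached a summed 5 FPKM in transcripts of 200 bp or more. Transcripts under 200 bp, which the rule leaves out, held 40.4%, 77.6% and 41.3% of the summed FPKM in air-dried 1, 2 and 3. In controls 1, 2 and 3 they held 47.3%, 74.1% and 73.6%.

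A uniform change of main transcript between the groups was rare. The 41 genes were 0.332% of the 12337 eligible genes, whereas 8159 (66.1%) had the same main transcript in all 6 libraries. A further 1008 genes were uniform in the air-dried libraries alone, 969 in the control libraries alone, and 2160 in neither group. Because these FPKM values chose the genes, the values of the 41 are a description and carry no test.

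Changes of main transcript between any 2 libraries were common by comparison. Libraries of different groups differed in the main transcript of 12.3% to 21.4% of eligible genes, with a median of 18.2% over 9 pairs. The 3 pairs of air-dried libraries differed in 12.4%, 19.3% and 21.1%, and the 3 pairs of controls in 14.2%, 19.2% and 20.1%. The ranges between and within groups overlapped. The values instead separated 2 sets of libraries that cut across the groups, which were seen in the data and not planned. Pairs within air-dried 1, control 1 and control 2, or within air-dried 2, air-dried 3 and control 3, differed in 12.3% to 15.4%. Pairs across these sets differed in 18.2% to 21.4%. The cause was not tested. Air-dried 1 was nearest to control 1 (15.2%) and control 2 (15.4%), and control 3 was nearest to air-dried 2 (12.3%) and air-dried 3 (12.7%). Air-dried 1 and control 3 were also the libraries that differed most from the others of their own group. The rule asks less of 4 libraries than of 6, and 162 to 809 genes met it over the 9 choices of 1 air-dried and 1 control library to leave out. The 809 (6.47% of 12502 eligible genes) came without air-dried 1 and control 3, the libraries least like their group. How far that choice by itself raises the count was not tested. The next highest count was 269.

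**Figure D1:**
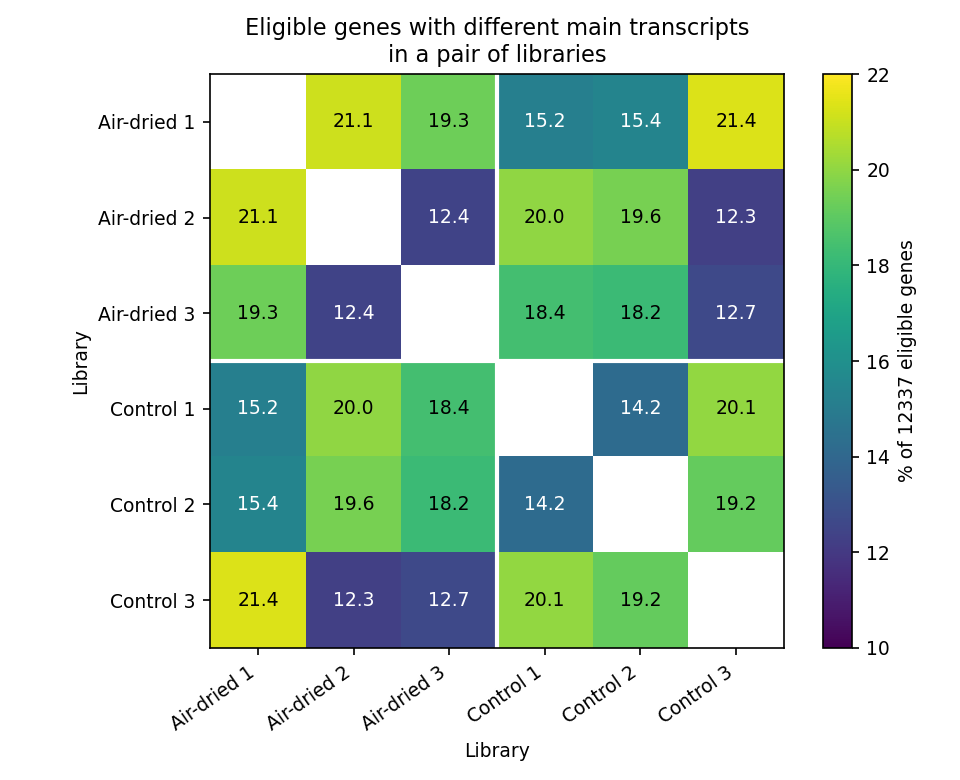
Percentage of the 12337 eligible genes whose main transcript differs between the libraries on the 2 axes, with white lines between the air-dried and the control group. The lowest values lie among air-dried 2, air-dried 3 and control 3 (12.3% to 12.7%), and the ranges of the pairs within and between groups overlap. Pairs within that set, or within air-dried 1, control 1 and control 2, all lie below the pairs across these sets.

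The lead of the main transcript was small in most of the 41 genes. The lead is the log2 ratio, in a library, of its own main transcript to the main transcript of the other group, with 0.1 FPKM added to both. The smallest of the 6 leads of a gene ranged from 0.00080 to 3.67, with a median of 0.065, which is a lead of 4.57%. In 25 of the 41 genes it was under 0.1, in 36 it was under 0.5, and in 3 it was at least 1. The library with the smallest lead was spread over the groups, with 8, 7 and 5 genes for air-dried 1, 2 and 3 and 9, 5 and 7 for controls 1, 2 and 3. Genes are ranked below by this smallest lead.

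**Figure D2:**
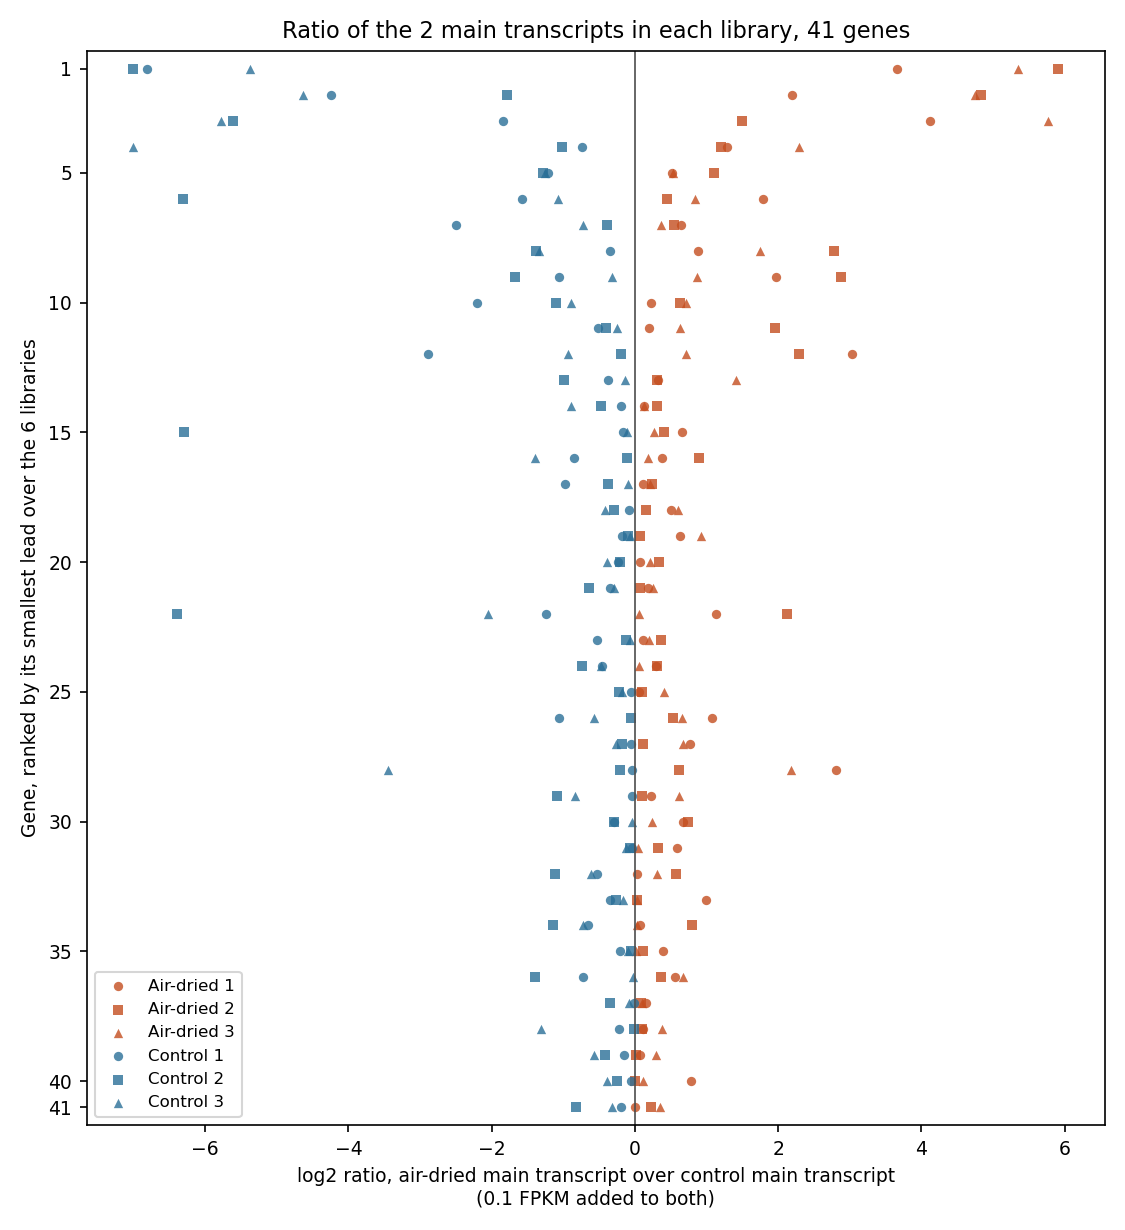
Log2 ratio of the air-dried main transcript to the control main transcript (x axis, 0.1 FPKM added to both) for each of the 41 genes (y axis, ranked by smallest lead) in 3 air-dried libraries (orange) and 3 control libraries (blue). The rule puts air-dried points right of 0 and control points left of it. The first 3 genes stay at least 1 away from 0 in every library, and 25 genes have a library closer than 0.1 to it.

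The transcripts that changed places were seldom the annotated ones on both sides. In 0 of the 41 genes both main transcripts were annotated. In 16 genes both were assembled from reads. In 15 the air-dried main transcript was assembled and the control main transcript annotated, and in 10 the reverse held. Assembled transcripts were thus the main ones in 31 of the 41 genes in air-dried libraries and in 26 in controls. Over all eligible genes they led in 43.2% to 43.6% of genes in air-dried libraries and in 42.9% to 44.5% in controls. How often each kind of pair could arise over the eligible genes was not computed. A pair of annotated main transcripts needs a gene with at least 2 annotated transcripts. With annotated transcripts alone 1960 genes were eligible, against 12337 with all transcripts. Nothing is therefore read from these counts.

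The pairs were grouped by their genomic limits, in the direction of transcription. In 13 genes the main transcripts differed in their limits at the 5′ end alone, in 9 at the 3′ end alone and in 9 at both ends. In 9 they had the same start and end, so they differ inside the gene in a way the files do not show. In 1 gene they did not overlap. Because exons are not given, main transcripts with different limits may also differ inside the gene. The air-dried main transcript had the longer span in 15 genes and the shorter in 17.

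Of the 13 genes that differed at the 5′ end alone, 9 did so by under 200 bp, and the 4 genes with the largest smallest lead were among the 13. The clearest was POPTR_0001s35660.r1, on the plus strand of chromosome 1 (34008053 to 34012100) with 4 listed transcripts. Both main transcripts were assembled ones ending at 34012100. The control main transcript began at 34008053 and the air-dried one at 34008171, which is 118 bp downstream. The air-dried main transcript had 16.2, 18.9 and 15.7 FPKM in air-dried 1, 2 and 3, against 0.0101, 0.0394 and 0.329 FPKM in controls 1, 2 and 3. The control main transcript had 1.19, 0.215 and 0.289 FPKM in the air-dried libraries, against 12.2, 17.8 and 17.6 FPKM in the controls. Neither transcript's groups overlapped, and each was low wherever the other was high. By the rule each form leads in its own group, and the estimate divides shared fragments between the forms. This pattern is therefore a description and carries no test. The share of the air-dried form was 83.4 ± 9.48% in air-dried leaves and 0.598 ± 0.825% in controls (SD, n = 3 each). The summed FPKM of the gene was 20.4 ± 0.644 in air-dried leaves and 19.9 ± 2.06 in controls, so the groups overlapped in the total.

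The second by smallest lead was POPTR_0019s10120.r1, on the minus strand of chromosome 19 (11697228 to 11710898) with 13 transcripts. Its assembled main transcripts share an end at 11697577 and begin 20 bp apart, at 11710734 in air-dried leaves and 11710754 in controls. Its air-dried form had 2.01, 2.76 and 2.60 FPKM in the air-dried libraries, against 0.000543, 0.504 and 0.00631 FPKM in the controls. Its control form had 0.362, 1.61e-05 and 0.00044 FPKM in the air-dried libraries, against 1.80, 1.98 and 2.54 FPKM in the controls. Control 2 was the one control with a visible level of the air-dried form, and both forms are at low levels. With so many listed transcripts, the air-dried main transcript held 38.7 ± 3.38% of the gene in air-dried leaves and 3.27 ± 5.56% in controls (SD, n = 3 each).

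The next gene lies on the minus strand of chromosome 11 (15891684 to 15943413) and was the one with 15 listed transcripts, the most among the 41. Its main transcripts begin 18 bp apart, at 15943413 in air-dried leaves and 15943395 in controls. The air-dried form had 2.91, 4.47 and 5.35 FPKM in the air-dried libraries, against 0.879, 5.62e-10 and 0.0076 FPKM in the controls. The control form had 0.0726, 1.53 and 0.000503 FPKM in the air-dried libraries, against 3.39, 4.78 and 5.81 FPKM in the controls. Air-dried 2 and control 1 kept some of the other form, and the groups of both forms were separate. This locus overlaps 3 other listed genes, 2 of them on the other strand or with no strand. The kit does not mark strand, so reads within the overlap may not be told apart.

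The fourth, on the minus strand of chromosome 18 (10491167 to 10497327), changed between its annotated transcript in controls and an assembled one that begins 19 bp upstream. The assembled form had 15.01, 18.7 and 23.01 FPKM in the air-dried libraries, against 7.34, 7.82 and 0.0990 FPKM in the controls. The annotated form had 6.09, 8.09 and 4.60 FPKM in the air-dried libraries, against 12.3, 15.9 and 25.5 FPKM in the controls. Control 3 was lowest for the assembled form and highest for the annotated one, so it stood apart from controls 1 and 2 in the size of the difference but not in its direction.

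The gene with the largest difference in total lies on the plus strand of chromosome 16 (205583 to 206585), with 3 listed transcripts. Its summed FPKM was 109, 65.0 and 81.4 in the air-dried libraries, against 23.8, 18.1 and 15.3 in the controls. An assembled transcript beginning 40 bp upstream of the annotated one had 70.5, 37.8 and 39.2 FPKM in the air-dried libraries, against 10.5, 4.98 and 3.53 FPKM in the controls. The annotated transcript had 38.4, 5.43 and 11.6 FPKM in the air-dried libraries, against 13.3, 13.1 and 9.06 FPKM in the controls. Here the assembled form was higher in each air-dried library, while the groups of the annotated form overlapped.

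POPTR_0014s08630.r1, on the plus strand of chromosome 14 (6410345 to 6414236) with 13 transcripts, has assembled main transcripts whose starts lie 15 bp apart. The air-dried form had 2.14, 4.01 and 2.31 FPKM in the air-dried libraries, against 0.907, 0.830 and 2.45 FPKM in the controls. The control form had 0.473, 0.457 and 1.22 FPKM in the air-dried libraries, against 2.00, 2.86 and 3.07 FPKM in the controls. The groups were separate for the control form and overlapped for the air-dried form through control 3. Its total was 7.44 ± 0.861 FPKM in air-dried leaves and 7.48 ± 1.97 FPKM in controls (SD, n = 3 each).

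A minus-strand gene of chromosome 6 (25434678 to 25441515) differed by more, since its air-dried main transcript begins 3338 bp upstream of the control one. The longer form had 5.08, 5.81 and 5.47 FPKM in the air-dried libraries, against 0.800, 2.22 and 2.34 FPKM in the controls. The shorter form had 4.33, 3.73 and 3.29 FPKM in the air-dried libraries, against 4.05, 4.88 and 4.41 FPKM in the controls. Only the longer form had separate groups. The other 6 genes of this kind had smallest leads under 0.1 and share differences of 1.91 to 34.5 percentage points.

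**Figure D3:**
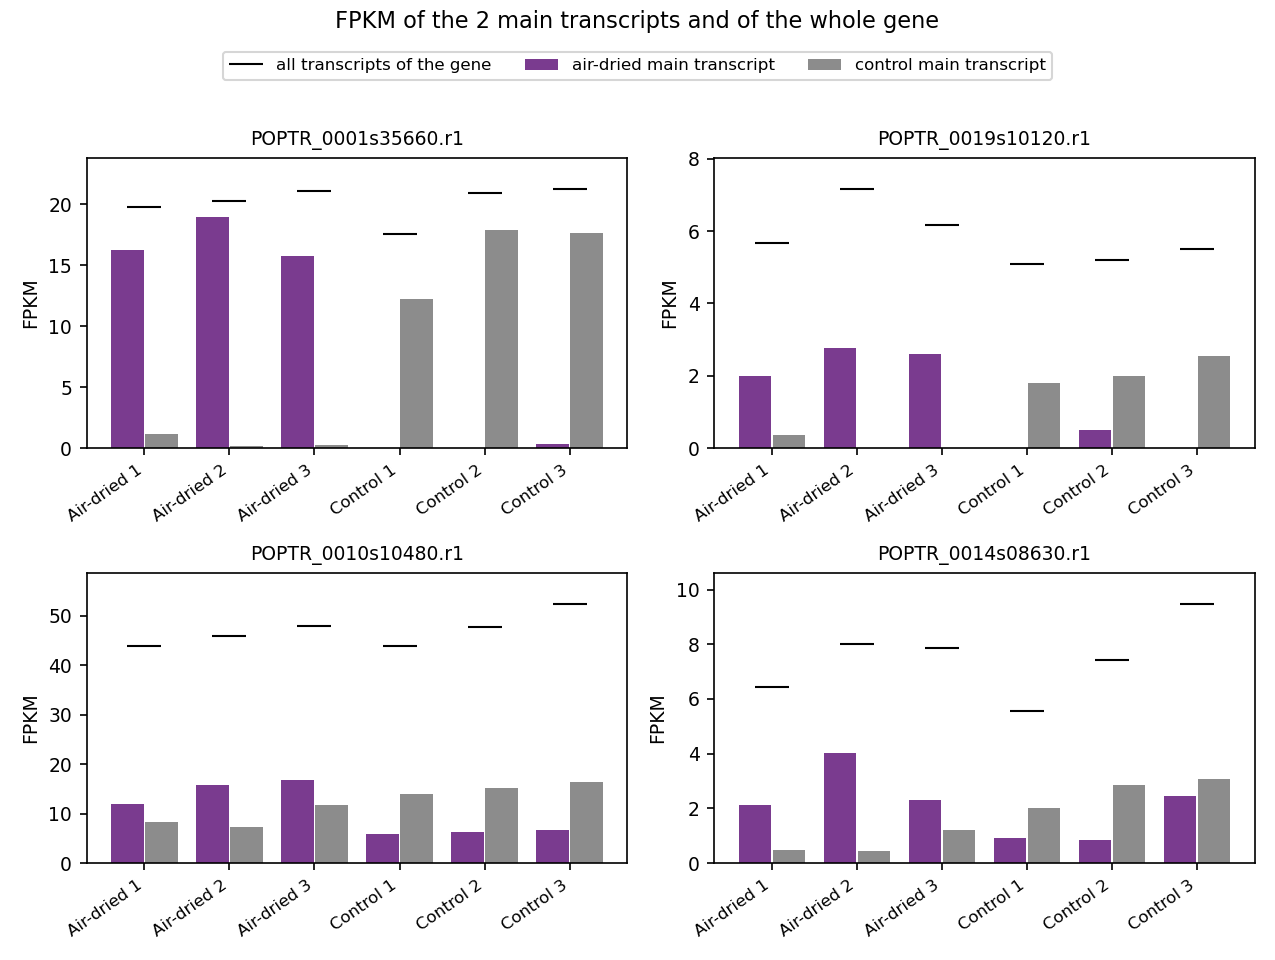
FPKM (y axis) of the air-dried main transcript (purple bars), of the control main transcript (grey bars) and of all transcripts of 200 bp or more (black marks) in each library (x axis) for the 4 genes printed by identifier. In POPTR_0001s35660.r1 the 2 forms exchange places under a total near 20 FPKM, while in the other 3 genes many transcripts beside the 2 shown hold part of the total.

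In 9 genes the main transcripts had the same limits. The first of these by smallest lead was POPTR_0010s10480.r1, on the minus strand of chromosome 10 (10974584 to 10980284) with 11 transcripts. It was led by its annotated transcript in air-dried leaves and by an assembled one in controls. The annotated form had 11.98, 15.8 and 16.8 FPKM in the air-dried libraries, against 5.92, 6.18 and 6.77 FPKM in the controls. The assembled form had 8.34, 7.29 and 11.6 FPKM in the air-dried libraries, against 13.9, 15.2 and 16.3 FPKM in the controls. Both forms had separate groups, and the controls lay close together. The annotated form held 32.2 ± 4.29% in air-dried leaves and 13.1 ± 0.341% in controls, of a total of 45.9 ± 2.06 FPKM in air-dried leaves and 48.0 ± 4.30 FPKM in controls (SD, n = 3 each).

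On chromosome 1, in a minus-strand gene (9214181 to 9217047) both forms were assembled. The air-dried form had 14.7, 14.5 and 9.12 FPKM in the air-dried libraries, against 1.57, 7.42 and 4.55 FPKM in the controls. The control form had 1.71, 2.88 and 5.54 FPKM in the air-dried libraries, against 12.3, 8.49 and 8.75 FPKM in the controls. Both forms had separate groups, with control 2 and air-dried 3 nearest to each other. On chromosome 9, in a plus-strand gene (12771520 to 12776517) the air-dried form had 4.60, 6.81 and 6.04 FPKM in the air-dried libraries, against 3.71, 4.57 and 5.12 FPKM in the controls. Its control form had 3.99, 1.69 and 3.89 FPKM in the air-dried libraries, against 5.36, 6.07 and 6.10 FPKM in the controls, and it alone had separate groups. Over the 9 genes of this kind the share of the air-dried main transcript differed by 6.24 to 45.4 percentage points between the group means, with a median of 11.1. The lowest of these was 2.39 without air-dried 1.

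Pairs whose limits differed at the 3′ end alone did so by 291 to 2630 bp. The air-dried main transcript was the longer in 3 of these 9 genes and the shorter in 6. On the minus strand of chromosome 6 (3963548 to 3967679) an assembled transcript that ends 1740 bp earlier than the annotated one had 10.4, 8.15 and 7.45 FPKM in the air-dried libraries, against 1.203, 4.45 and 4.11 FPKM in the controls. The annotated transcript had 6.68, 5.55 and 5.76 FPKM in the air-dried libraries, against 7.24, 5.84 and 6.85 FPKM in the controls. The short form had separate groups, and the annotated one overlapped. On the minus strand of chromosome 17 (4806774 to 4810087) a transcript ending 699 bp earlier than the annotated one had 5.24, 3.91 and 5.86 FPKM in the air-dried libraries, against 3.19, 2.54 and 3.22 FPKM in the controls. Its annotated form had 4.15, 3.13 and 2.14 FPKM in the air-dried libraries, against 4.18, 5.17 and 3.58 FPKM in the controls, and these groups overlapped.

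In the 3 genes with a longer air-dried form the extension was 961, 1847 and 2630 bp. The longest extension lies on the minus strand of chromosome 18 (10022704 to 10026211), in a gene with 2 transcripts. Its extended form had 10.4, 9.46 and 9.94 FPKM in the air-dried libraries, against 7.12, 7.91 and 3.27 FPKM in the controls. The annotated form had 8.02, 5.03 and 8.73 FPKM in the air-dried libraries, against 12.9, 8.504 and 8.80 FPKM in the controls. Only the extended form had separate groups. The gene overlaps another listed gene on the other strand or with no strand. On the plus strand of chromosome 6 (21843878 to 21847032) the extended form had 6.15, 4.09 and 4.03 FPKM in the air-dried libraries, against 3.904, 0.000301 and 4.90 FPKM in the controls. Its annotated form had 3.85, 3.06 and 3.33 FPKM in the air-dried libraries, against 4.39, 7.77 and 5.28 FPKM in the controls. Control 2 was near 0 for the extended form and highest for the annotated one, and the groups of the extended form overlapped.

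Among the 9 pairs that differed at both ends, 1 on the minus strand of chromosome 14 (13784866 to 13786759) had limits 8 and 12 bp apart. Its assembled form had 28.2, 21.7 and 27.9 FPKM in the air-dried libraries, against 30.1, 24.4 and 13.9 FPKM in the controls. The annotated form had 25.8, 17.4 and 25.5 FPKM in the air-dried libraries, against 34.5, 33.9 and 25.9 FPKM in the controls. The assembled form had overlapping groups, and the annotated form was lower in each air-dried library.

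In 4 of the 41 genes the main transcripts carry the names of different annotated genes, so the change of main transcript there is a change between gene models that the files join into 1 locus. The first, on the minus strand of chromosome 11 (11558359 to 11568742), has main transcripts that share 457 bp. The annotated transcript at its 5′ side had 25.8, 8.68 and 5.95 FPKM in the air-dried libraries, against 2.04, 5.95e-78 and 3.77 FPKM in the controls. The assembled transcript on its 3′ side had 7.38, 6.36 and 3.30 FPKM in the air-dried libraries, against 6.28, 7.82 and 8.06 FPKM in the controls. Air-dried 1 was the highest for the first, and the groups of the second overlapped. The summed FPKM was 33.6, 17.5 and 14.96 in the air-dried libraries, against 8.82, 9.62 and 13.3 in the controls.

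The other 3 are named because of their small number, after their values were seen. The pair without overlap lies on the plus strand of chromosome 15 (9986212 to 10021686), where 33019 bp separate the main transcripts. The air-dried one had 3.68, 2.80 and 3.47 FPKM in the air-dried libraries, against 3.97, 2.64 and 3.04 FPKM in the controls. The control one had 3.00, 2.24 and 3.32 FPKM in the air-dried libraries, against 5.48, 4.45 and 4.25 FPKM in the controls. The groups overlapped for the air-dried transcript, and the control transcript was lower in each air-dried library. The remaining pairs, on the plus strands of chromosome 1 (11269887 to 11275753) and chromosome 12 (9192504 to 9198481), had smallest leads of 0.048 and 0.019.

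For most of the genes the total differed little between the groups. The mean summed FPKM was higher in air-dried leaves in 24 of the 41 genes and lower in 17, and in 34 the means were within 1.2-fold of each other. The median log2 ratio of the total, air-dried over control, was 0.015 over the 41 and 0.0057 over all eligible genes. In 8 of the 41 genes (19.5%) the totals of all air-dried libraries lay above those of all controls, against 10.9% of eligible genes. In 4 (9.76%) they lay below, against 8.24% of eligible genes. In limma on log2(FPKM + 1) over 22559 genes with an adjusted p under 0.05, 1 of the 41 was called higher, the gene on chromosome 16, and 0 lower. Of all tested genes, 3.61% were called higher and 0.696% lower. Since the same contrast chose the 41, nothing is read from these counts.

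The air-dried main transcript had the higher mean in air-dried leaves in 39 of the 41 genes, and the control main transcript the lower mean in 39. Both held in 37. All 3 air-dried libraries lay above all 3 controls for the air-dried main transcript in 20 genes (48.8%), against 8.52% of all tested transcripts. They lay below for the control main transcript in 22 (53.7%), against 6.34% of all tested transcripts. Both held in 9, for which no rate over eligible genes was computed. In limma over 41109 transcripts, 1 of the 41 air-dried main transcripts was called higher (0.778% of all tested) and 1 of the 41 control main transcripts lower (0.0876% of all tested). Both belong to POPTR_0001s35660.r1. The call of its control main transcript was lost without air-dried 2, air-dried 3, control 2 or control 3, with a limma adjusted p of 0.0540 to 0.0784, and the call of its air-dried main transcript in 0 of the fits without 1 library. With the replicate number as a block both calls were lost, at a limma adjusted p of 0.0505 for the air-dried and 0.151 for the control main transcript. At an unadjusted p under 0.05, 3473 transcripts passed in all, of which 356 passed after adjustment. The same contrast chose the main transcripts of the 41 genes. Nothing is therefore read from the counts and calls of these transcripts, nor from how far the calls held.

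The share of the air-dried main transcript had a median of 49.2% in air-dried leaves (range 30.2% to 83.4%) and 33.8% in controls (range 0.598% to 46.4%) over the 41 group means. The control main transcript had a median of 37.1% in air-dried leaves and 51.1% in controls. Between the group means the share of the air-dried main transcript differed by 1.91 to 82.8 percentage points, with a median of 13.1, and by at least 30 points in 9 genes. In 31 genes the shares of the 3 air-dried libraries all lay above those of the 3 controls, and in 10 they overlapped. The rule itself favours such separation, since it fixes which main transcript leads in every library. Its rate over all eligible genes was not computed, so nothing is read from this count. Added up, the main transcripts held a median of 89.0% of the gene in air-dried leaves and 87.9% in controls.

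**Figure D4:**
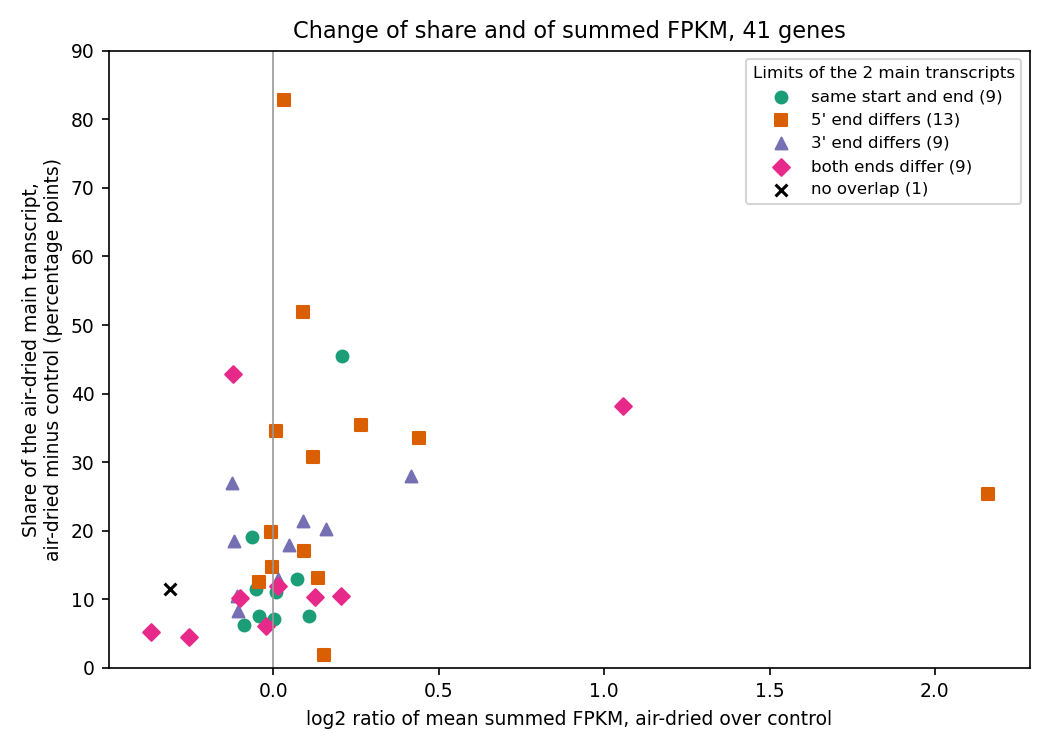
Difference between the group means in the share of the air-dried main transcript (y axis, percentage points, air-dried minus control) against the log2 ratio of the mean summed FPKM (x axis, air-dried over control) for the 41 genes, with a symbol for how the limits of the main transcripts differ. Most genes lie near 0 on the x axis, the highest point (82.8 points) is POPTR_0001s35660.r1, and the point farthest right (2.16) is the gene on chromosome 16.

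No main transcript was listed at exactly 0 in a library of the other group (0 of the 41 genes). Values under 0.001 FPKM occurred in 8 of 246 such values. They belong to 5 genes for the air-dried main transcript in controls, and to 2 of these for the control main transcript in air-dried libraries.

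The 41 genes were close to other eligible genes in level and length, and their main transcripts held less of the gene. Their median total was 16.7 FPKM, against 19.0 FPKM for eligible genes, and their median genomic span 4149 bp, against 4418 bp. They had a median of 5 transcripts of 200 bp or more, against 4, and 3 of them (7.32%) had just 2, against 21.2%. The main transcript of a library held a median of 49.8% of the gene in the 41, against 72.2% in eligible genes. The main transcript led the runner-up by under 0.1 on the log2 scale in at least 1 library in 30 of the 41 genes (73.2%), against 16.98% of eligible genes. The rule favours genes with close leads, so this is a description of what it selects. Of the 41, 1 had 15 or more listed transcripts (2.44%), against 3.49% of eligible genes.

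Position was broad. The 41 genes lie on 18 chromosomes and 1 unplaced scaffold, 17 on the plus and 24 on the minus strand. The closest neighbours among them were the fourth gene and another on chromosome 18, which lie 125423 bp apart, and the gene with the 2630 bp extension lies 337277 bp from the second of these. Of the 41, 9 (21.95%) overlap another listed gene, against 13.2% of eligible genes, and in 8 (19.5%) that gene is on the other strand or has none, against 10.9%. Loci whose identifier was given by the assembly make up 10 of the 41 (24.4%), against 13.3% of eligible genes.

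The genes just inside the rule had almost equal transcripts. The gene with the smallest lead lies on the minus strand of chromosome 14 (12500127 to 12502963). Its annotated form had 5.10, 3.68 and 4.70 FPKM in the air-dried libraries, against 3.93, 3.26 and 2.77 FPKM in the controls. An assembled form whose limit lies 5 bp away had 5.10, 3.14 and 3.66 FPKM in the air-dried libraries, against 4.52, 5.81 and 3.48 FPKM in the controls. In air-dried 1 the difference was 0.0558%. The next lie on the minus strand of chromosome 4 (2327908 to 2334189) and on the plus strand of chromosome 2 (13655791 to 13663086), with smallest leads of 0.0078 and 0.018, both in air-dried 2.

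Just outside were 406 genes that met the rule in 5 of the 6 libraries. In 373 of them the main transcript of the failing library was that of the other group. The failing library was control 3 in 127 genes and air-dried 1 in 100, the libraries that differed most from the others of their own group in the pairs above. It was air-dried 2 in 52, control 1 in 50, air-dried 3 in 47 and control 2 in 30. The closest miss, on the plus strand of chromosome 6 (23330124 to 23336541), failed in air-dried 3, where 64.6 FPKM stood for both forms and the difference was 0.0453%. The next failed by 0.0939% in air-dried 2 (chromosome 14, 8420690 to 8424637, minus strand) and by 0.515% in air-dried 1 (chromosome 11, 8546882 to 8549809, minus strand).

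**Figure D5:**
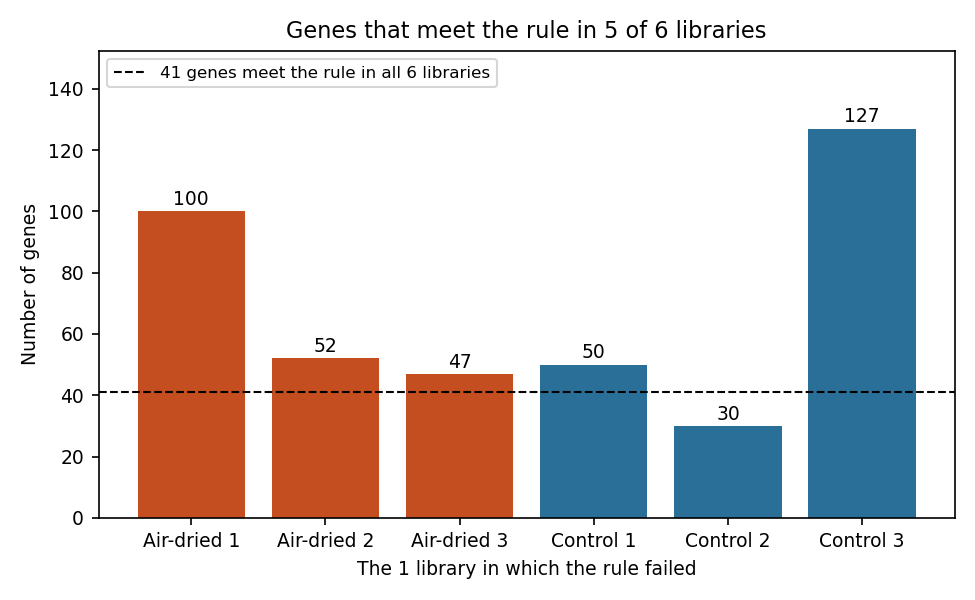
Number of genes (y axis) that meet the rule in 5 of the 6 libraries, by the library in which it failed (x axis, orange for air-dried, blue for control), with the 41 genes that meet it in all 6 as a dashed line. Control 3 (127) and air-dried 1 (100) are the tallest bars.

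The number of genes depended on how large a lead was asked for. With a lead of at least 1.5 times in every library 4 of the 41 genes were left, and with at least 2 times 3 were left: the genes on chromosomes 1, 19 and 11 described first. With annotated transcripts alone 1 gene met the rule among 1960 eligible ones, and 0 of the 41 did.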

How the data were processed

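The deposited values are FPKM, 1 per transcript and library, per the file headers. FastQC, TopHat and Cufflinks appear in the submitters' processing notes, with no role or version. For the genome build and annotation, a name is not given in the sources used here. TruSeq libraries of poly(A) RNA, which do not mark strand, were read as paired ends of 100 bp, per the labels' protocols.

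The rule was applied to transcripts of 200 bp or more (Python 3.11.15, pandas 2.3.3). Ties for the highest FPKM occurred in 7 eligible genes and in 0 of the 41. For limma 3.58.1 in R 4.3.3 (trend, 2-sided, Benjamini-Hochberg), FPKM was summed over all transcripts of a gene, and genes or transcripts with at least 1 FPKM in 3 libraries were tested on log2(FPKM + 1), with the group as sole term and a threshold of 0.05. Scripts were tested on simulated data with large planted changes, which does not show how the rule behaves where leads are small. Relative depth came from single-transcript genes under 0.08 FPKM.

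The members, tests and alternatives were chosen with earlier results of these data known. By the naming rule, identifiers were printed for the 2 genes with the largest smallest lead and a higher air-dried total, and the 2 with a lower one. The next 12, the 3 just inside and the 3 just outside are given by position. No list of pathway genes or cell markers was used, since no names are paired.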

Additional observations from a re-analysis of the deposited data

How the results depend on the processing

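The count of 41 genes was 61 with a minimum of 1 FPKM, 42 with a minimum span of 500 bp, 41 with none, and 41 with transcripts grouped by annotated gene name (36 of the same pairs), an alternative chosen after the data were seen. It was 16 with a minimum of 20 FPKM, 1 with annotated transcripts alone, 4 and 3 with a lead of 1.5 and 2 times. In 4 libraries it was 809 with air-dried 1 and control 3 left out, and 239 and 207 with air-dried 1 and controls 1 and 2, 203, 168 and 269 with air-dried 2 and controls 1, 2 and 3, and 171, 162 and 260 with air-dried 3 and controls 1, 2 and 3; these other 8 choices were added after the data were seen. Leaving out 1 library gave 71 to 169 genes and contained all 41 each time, since the rule then asks less; it was 141 without air-dried 1, 169 without control 3, 94 and 89 without air-dried 2 and 3, and 91 and 71 without controls 1 and 2.

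The 971 genes called by limma on sums became 553 with a mean of at least 5 FPKM, where fewer genes are tested, and 477 to 693 with 1 library left out (578 and 536 without controls 1 and 2, 568 and 477 without air-dried 2 and 3). With the replicate number as a block they became 557 (1 of the 41 genes called, as without it). The 356 called transcripts became 61 with the replicate block (1 main transcript of the 41 genes called, against 2, and neither of those of POPTR_0001s35660.r1), 99 (without air-dried 3) to 223 (without control 3) with 1 library left out, fewer in each of the 6 fits, and 1357 without air-dried 1 and control 3, the one choice of 4 libraries fitted. The causes were not tested. Deviations of same-numbered libraries correlated at 0.24, −0.15 and 0.12. Without values for differently numbered libraries beside them, these cannot show whether the numbers pair the samples, and this was not tested.

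Of 328 recomputed share differences (41 genes, 8 settings), 317 moved by less than 1 SD, 10 moved further and 1 reversed. The 10 were all shares of the 2 main transcripts alone, which took POPTR_0019s10120.r1 to 88.1 percentage points, against 35.4, and the gene next in rank on chromosome 11 to 83.8, against 33.5. The 317 do not show that the differences are stable. With 3 libraries in a group, leaving out 1 cannot move a difference by the pooled SD of the groups. None of those 246 values could therefore count as moved further. The 41 shares of all listed transcripts could not change, since all listed transcripts of the 41 genes span 200 bp or more. Moves within 1 SD can still be large: without 1 library, 17 of 246 differences, in 11 genes, moved by over 1.5 times. The 26.9 points of a plus-strand gene of chromosome 6 (21843878 to 21847032) were 11.5 without control 2, the 13.0 of a plus-strand gene of chromosome 3 (1203028 to 1205868) were 4.73 without control 3, and the 6.24 of a minus-strand gene of chromosome 3 (11201166 to 11207307) were 2.39 without air-dried 1. For a minus-strand gene of chromosome 6 (6095936 to 6106450) the 1.91 percentage points ran from −0.469 without air-dried 1 to 3.42 without air-dried 2. Absolute depth is not known, so no limit can be set on a value near 0.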
